A study of Homo sapiens with 8 samples.

Results

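HEK293T is a transformed human embryonic kidney cell line. Its stable derivatives carrying the TET1 catalytic domain without a targeting module (TET1-CDwt, clones #2 and #5) were set against derivatives carrying the empty pcDNA6/myc-His vector (Vec, clones #1 and #2), so 4 of the 8 arrays of the series were compared. Samples were taken by their titles, with no measured value used. Each array held the RNA of 1 clone, grown from a single blasticidin-resistant colony, so a difference between groups rested on 2 clones against 2 and the clone was the replicate. The other 4 arrays held clones of the same catalytic domain joined to a methyl-CpG binding domain from MBD2, in an active form (MBD-TET1-CDwt #3 and #10) or a catalytically inactive form (MBD-TET1-CDmut #9 and #10), and served here to estimate the spread between clones. All lines shared the parental cell, the blasticidin selection and the culture medium. The 4 compared arrays lay on 1 slide at positions 1 to 4, with Vec at positions 1 and 2, so position on the slide and construct cannot be told apart.

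TET1 is a dioxygenase that oxidizes 5-methylcytosine in DNA to 5-hydroxymethylcytosine and further to formyl and carboxyl forms. The oxidized bases can be lost during replication or cut out by base excision repair, which leaves unmethylated cytosine. Methylated CpG islands at promoters are generally silent, and methyl-CpG binding proteins such as MBD2 recruit repressors to them. The TET1 catalytic domain used alone lacks the CXXC zinc finger through which full-length TET1 contacts CpG-rich DNA. The comparison asks which transcripts differ when the domain is present without recruitment, and whether both clones show it.

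Levels are given as log2 of the array intensity minus the 75th percentile of the array, so a level of 0 is a bright probe and the background limit (the lowest signal that the scanner flagged as well above background) was -6.01 to -5.82. The 75th percentile itself was 353 to 527 intensity units, 65.8% to 68.2% of probes were well above background, and no spot was saturated. Repeat spots of 1 probe on an array differed with a median SD of about 0.06, taken over heavily repeated probes mostly well above background. Sister clones differed with an SD per clone of 0.35 for Vec and 0.38 for TET1-CDwt over 22530 probes, bright and dim. These spreads are unlike measures and do not compare directly. All 12 genes fixed as marks of HEK293 cells, among them PAX2, LHX1, NEFL and VIM, were well above background on the 4 arrays, and their summed level was 182 and 169 in Vec and 143 and 179 in TET1-CDwt (linear units of the 75th percentile). Markers of other cell types summed to at most 0.81 in any list on any of the 4 arrays, the highest being the leukocyte list in TET1-CDwt #2.

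Of the TET1 probes, A_23_P322756 read -1.28 and -1.20 in Vec #1 and #2 and -1.03 and -1.31 in TET1-CDwt #2 and #5. The second probe, A_33_P3295550, read 2.62 and 2.94 in Vec and 2.74 and 2.71 in TET1-CDwt. The groups overlapped at both probes, with differences of 0.07 (SE 0.19) and -0.06 (SE 0.19) and a limma adjusted p of 1 at each. Where these probes lie relative to the cloned domain is not given in the sources used here, so they do not check the labels. B2M, the light chain of MHC class I, differed by 0.11 (SE 0.16). MBD2 differed by 0.13 (SE 0.20) at its brighter probe. SOX17, MAL, MT1M and TRH, the genes with methylated promoters that the study examined by RT-PCR, stayed below that limit on each of the 4 arrays.

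No transcript passed the test between the untargeted domain and the empty vector. With limma and Benjamini-Hochberg adjustment over 22530 probes, 0 probes had an adjusted p below 0.05 (0%). At an unadjusted p below 0.05, 147 probes were higher (0.652%) and 417 lower (1.85%) in TET1-CDwt. Both TET1-CDwt values lay above both Vec values at 2416 probes (10.7%) and below them at 3832 probes (17%). The balance between higher and lower depended on the scaling. It was 255 against 249 after quantile normalization, 290 against 232 after median scaling, and 532 against 39 after scaling to the E1A spike-in controls, which moved the median difference over all probes to 0.34. Without Vec #1 the number lower was 1002, and the number higher was 224 without Vec #2, 290 without TET1-CDwt #2 and 224 without TET1-CDwt #5.

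By size alone, 77 of 17671 genes were at least 2-fold higher by group mean (0.436%) and 125 of 17824 at least 2-fold lower (0.701%). At 5-fold these were 3 genes higher (0.017%) and 1 gene lower (0.00561%). With spike-in scaling the 2-fold counts were 293 and 21. Each count depended on single clones. The number at least 2-fold higher was 125 without Vec #1, 144 without Vec #2, 293 without TET1-CDwt #2 and 333 without TET1-CDwt #5. The number lower was 913, 230, 317 and 290 in the same order. The 5-fold counts without each array ran from 5 to 31 higher and from 1 to 25 lower.

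A stricter rule asked that the lower of the 2 TET1-CDwt clones exceed the higher of the 2 Vec clones by 2-fold, or the reverse. It was met by 6 genes on the higher side (0.034%) and 3 on the lower side (0.0168%). The first were DPYSL3, FGF13, FANCF, AREG, SLC13A4 and a transcript known only as ENST00000376987. The second were FAAH2, ST8SIA1 and the unnamed probe A_33_P3338539. Without Vec #1, Vec #2, TET1-CDwt #2 and TET1-CDwt #5 in turn, the rule took 27, 37, 197 and 210 genes higher and 591, 143, 128 and 62 lower. Leaving out an array removes comparisons from this rule, so its counts can only stay equal or rise. The rise is therefore no check of the rule. With normexp background correction, which compresses dim signals, the rule took 1 gene higher and 0 lower.

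DPYSL3 encodes a cytosolic protein of the collapsin response mediator family that acts in axon growth. Its level was -2.35 in both Vec clones, 0.53 in TET1-CDwt #2 and -0.86 in TET1-CDwt #5. The Vec clones coincided and both TET1-CDwt clones stood above them, but by unequal amounts. The group means differed 4.55-fold (log2 difference 2.19, SE 0.55, limma adjusted p = 1), and the closest clones differed 2.80-fold. FGF13, an intracellular fibroblast growth factor homologue that binds sodium channels, read -2.63 and -1.86 in Vec and -0.38 and -0.14 in TET1-CDwt. The groups were separate by 2.79-fold at their closest. The level on the other 4 arrays ran from -4.12 in MBD-TET1-CDwt #3 to 1.17 in MBD-TET1-CDmut #9, so clones of other constructs spanned more than the difference between the groups.

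FANCF, a subunit of the Fanconi anaemia core complex in repair of DNA crosslinks, read -6.62 and -5.69 in Vec and -4.10 and -4.51 in TET1-CDwt. Only Vec #2 was well above background among the vector clones. The same probe read -4.44 to -3.36 on the other 4 arrays, so the Vec clones were the lowest 2 of 8. A brighter FANCF probe, above background in every clone, read -3.97 and -3.29 in Vec and -2.52 and -2.72 in TET1-CDwt (log2 difference 1.01, SE 0.51), and its closest clones differed by 0.57 on the log2 scale, short of the 2-fold rule. AREG, the EGF receptor ligand amphiregulin, read -5.79 and -5.66 in Vec, neither well above background, and -4.56 and -4.43 in TET1-CDwt, at least 2.35-fold higher. With normexp background correction the AREG difference was -0.034. SLC13A4, a sulfate transporter, read -1.79 and -1.57 in Vec and -0.56 and -0.26 in TET1-CDwt, a 2.41-fold difference of means. Its SE was large in the fit over 8 arrays (log2 difference 1.27, SE 0.83, limma unadjusted p = 0.17).

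ST8SIA1, the sialyltransferase that makes ganglioside GD3, had the smallest p of all probes at 1 of its 2 probes, A_23_P354705. The level there was -3.90 in Vec #1 and -4.64 in Vec #2. It was -7.89 and -7.94 in TET1-CDwt, not well above background in either clone. The TET1-CDwt signal was at least 3.12-fold lower (log2 difference -3.65, SE 0.27, limma adjusted p = 0.0748). With normexp the difference was -0.62. It was -7.55 to -7.08 on the other 4 arrays, so this probe was measured above background in the Vec clones alone among the 8 arrays. The second probe, A_33_P3380751, was well above background on all 4 arrays and differed far less, at -3.36 and -2.92 in Vec and -3.61 and -3.81 in TET1-CDwt (log2 difference -0.57, SE 0.21, limma adjusted p = 1). Over 12 alternative settings the adjusted p ran from 0.00321, under spike-in scaling, to 1, with a trended prior, at the first probe. FAAH2, a fatty acid amide hydrolase, read -2.44 and -3.59 in Vec and -5.10 and -6.17 in TET1-CDwt, of which clone #5 was not well above background. The means differed at least 5.58-fold with clone #5 raised to the background limit (log2 difference as measured -2.62, SE 0.48, limma adjusted p = 1). The closest clones differed 2.85-fold. The active MBD-TET1-CDwt clones read -5.93 and -5.47, as low as TET1-CDwt, and the inactive MBD-TET1-CDmut clones read -3.57 and -3.98, near Vec #2.

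**Figure D1:**
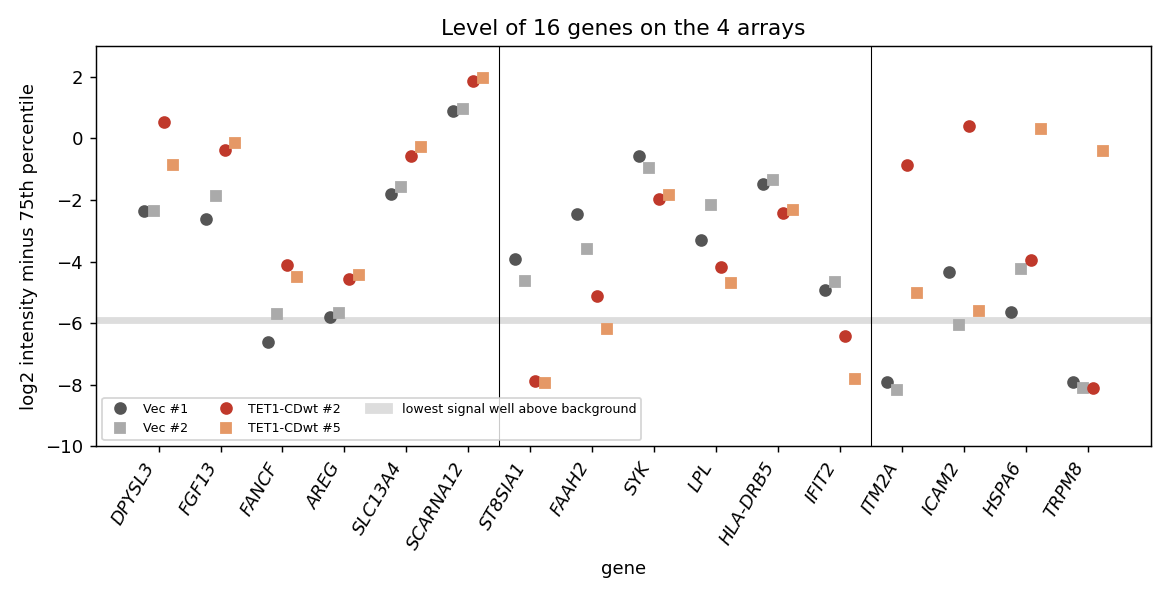
Level (log2 intensity minus the 75th percentile of the array, vertical axis) of 16 genes, 1 probe each (horizontal axis), on each of the 4 arrays, with grey points for Vec and coloured points for TET1-CDwt, and a grey band for the lowest signal well above background. Genes left of the first line stood higher in both TET1-CDwt clones, those in the middle lower in both, and those on the right in mainly 1 clone, as for ICAM2 at 0.40 in clone #2 and -5.59 in clone #5.

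The promoters of 4 of these genes are shown because the domain acts on methylated CpG, with each CG in capitals. The sequences are from RefSeq on GRCh38.p14, 300 bases each, from 250 before to 50 after the start of the gene, 5′ to 3′ on the strand of the gene. They are DPYSL3 (chr5:147510019-147510318, minus strand, 29 CG), FGF13 (chrX:139204974-139205273, minus strand, 34 CG), ST8SIA1 (chr12:22334658-22334957, minus strand, 35 CG) and FAAH2 (chrX:57286604-57286903, plus strand, 12 CG).
DPYSL3: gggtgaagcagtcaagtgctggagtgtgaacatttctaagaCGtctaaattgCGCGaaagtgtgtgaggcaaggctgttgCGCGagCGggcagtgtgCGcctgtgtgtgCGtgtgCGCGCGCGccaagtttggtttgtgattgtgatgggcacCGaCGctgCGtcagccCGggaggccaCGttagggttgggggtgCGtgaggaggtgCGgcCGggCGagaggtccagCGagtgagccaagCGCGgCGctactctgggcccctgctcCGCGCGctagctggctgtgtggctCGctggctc
FGF13: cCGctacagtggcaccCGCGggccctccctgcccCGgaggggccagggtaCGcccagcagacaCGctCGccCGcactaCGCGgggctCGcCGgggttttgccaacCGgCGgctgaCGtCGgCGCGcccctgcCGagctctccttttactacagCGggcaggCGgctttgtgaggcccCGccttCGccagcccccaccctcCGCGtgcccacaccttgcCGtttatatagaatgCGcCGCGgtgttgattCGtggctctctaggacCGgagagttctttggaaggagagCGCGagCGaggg
ST8SIA1: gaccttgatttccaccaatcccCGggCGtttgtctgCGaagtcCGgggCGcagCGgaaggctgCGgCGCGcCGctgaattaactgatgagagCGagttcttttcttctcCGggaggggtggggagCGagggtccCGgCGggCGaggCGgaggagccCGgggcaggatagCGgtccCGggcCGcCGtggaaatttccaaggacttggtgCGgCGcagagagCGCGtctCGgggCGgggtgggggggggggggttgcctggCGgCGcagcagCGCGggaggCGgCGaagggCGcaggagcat
FAAH2: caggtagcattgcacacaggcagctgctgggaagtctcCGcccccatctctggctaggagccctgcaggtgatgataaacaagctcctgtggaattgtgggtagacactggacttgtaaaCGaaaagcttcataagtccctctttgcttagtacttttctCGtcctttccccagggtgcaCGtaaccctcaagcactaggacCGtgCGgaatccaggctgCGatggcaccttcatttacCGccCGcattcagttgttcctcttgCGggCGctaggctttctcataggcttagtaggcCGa
A promoter was called CpG-rich where more than 50% of its bases were G or C and CG occurred at over 0.6 of the frequency its base content gives. DPYSL3, FGF13 and ST8SIA1 met this, as did FANCF and AREG, while FAAH2 and SLC13A4 did not. High CG content thus occurred on both the higher and the lower side. Of all tested genes with a promoter sequence, 76.6% of 11438 were CpG-rich. The share was 22 of 36 (61.1%) among genes at least 2-fold higher by mean and 20 of 41 (48.8%) among those at least 2-fold lower. DNA methylation was not measured on these arrays. Promoters were taken at the RefSeq start of the gene, and whether the transcript of each probe begins there was not checked.

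Among transcripts silent in both vector clones, few were measured in both TET1-CDwt clones. Of 1422 probes not well above background in either Vec clone and with a CpG-rich promoter, 17 (1.20%) were well above background in both TET1-CDwt clones. It was 13 of 3223 (0.403%) with other promoters. The quartiles of the difference were -0.23 and 0.16 with a CpG-rich promoter and -0.18 and 0.06 with others, so the first spread more widely. Over 34127 probes, 62 were off in both Vec and on in both TET1-CDwt, and 120 were on in both Vec and off in both TET1-CDwt. Of those with a promoter sequence, 17 of 30 and 16 of 45 were CpG-rich. For the 62 and the 120 probes the median level where on was -5.23 and -5.25, close to the background limit. Among them 16 and 15 reached 2-fold.

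Other genes were near 2-fold at the closest clones on the higher side. SCARNA12, a small Cajal body RNA that guides modification of spliceosomal RNA, read 0.88 and 0.97 in Vec and 1.86 and 1.96 in TET1-CDwt (log2 difference 0.99, SE 0.21, limma adjusted p = 1). Sister clones lay close together in both groups. AHNAK, a giant scaffold protein, read -2.68 and -2.48 in Vec and -1.26 and -1.51 in TET1-CDwt at 1 of 3 probes. The others differed by 0.31 (SE 0.32), with the groups overlapping, and by 0.48 (SE 0.31). CYP1B1, a cytochrome P450 of oestrogen and xenobiotic metabolism, read -4.93 and -4.89 in Vec and -3.93 and -3.94 in TET1-CDwt, and its brighter probe differed by 0.64 (SE 0.24). DRAM1, a p53-regulated lysosomal protein of autophagy, read -5.93 and -5.73 in Vec and -4.85 and -4.72 in TET1-CDwt. These genes were picked for their closest clones or a small p on the higher side. Both clones standing above both Vec clones at the probes given therefore comes with that choice and adds nothing to it. Over all tested probes this held at 10.7%.

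On the lower side, SYK, a tyrosine kinase of immune receptor signalling, read -0.56 and -0.96 in Vec and -1.95 and -1.82 in TET1-CDwt, a 2.19-fold difference of means. LPL, lipoprotein lipase, read -3.30 and -2.17 in Vec and -4.17 and -4.68 in TET1-CDwt, a 3.23-fold difference. LEPR, the leptin receptor, read -1.90 and -1.98 in Vec and -2.96 and -2.83 in TET1-CDwt. At the brightest LEPR probe the groups overlapped, at 5.28 and 6.29 in Vec and 5.18 and 5.66 in TET1-CDwt. Each had a limma adjusted p of 1. HLA-DRB5, an MHC class II beta chain, read -1.50 and -1.36 in Vec and -2.42 and -2.34 in TET1-CDwt. HLA-DRB4 read -3.48 in both Vec clones and -4.53 and -4.35 in TET1-CDwt. These 2 genes are near-identical in sequence and may share target RNA, so they are not separate evidence. CLEC2B, a C-type lectin, read -5.33 and -4.91 in Vec and -7.32 and -7.87 in TET1-CDwt, where it was not well above background, at least 1.73-fold lower.

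The 3 genes at least 5-fold higher by mean each owed this to 1 clone. HSPA6, an inducible member of the HSP70 chaperones, read -5.62 and -4.23 in Vec, -3.96 in TET1-CDwt #2 and 0.31 in TET1-CDwt #5. Clone #2 lay 1.20-fold above Vec #2. A second HSPA6 probe differed by 1.20 (SE 0.72), with clone #2 below both Vec clones. ICAM2, an adhesion molecule of leukocytes and endothelium, read -4.35 and -6.04 in Vec, 0.40 in clone #2 and -5.59 in clone #5. Clone #5 lay between the Vec clones, and without clone #2 the difference was -0.39. ITM2A, a membrane protein of differentiating cartilage and T cells, read -7.92 and -8.15 in Vec, neither well above background, -0.88 in clone #2 and -5.03 in clone #5. Both clones were above Vec, yet clone #5 minus clone #2 was -4.15. Other genes were measured in clone #5 alone. TRPM8, a cold-sensing ion channel, read -0.40 there and -8.11 to -7.89 on the other 3 arrays. BHLHE22, a neural transcription factor, read -1.24 there and -7.94 to -7.38 on the other 3.

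Counted gene by gene, 210 genes were at least 2-fold above both Vec clones in TET1-CDwt #2 and 197 in TET1-CDwt #5, with the 6 named above in both. On the lower side these were 62 and 128, with 3 in both. At 5-fold, 20 genes were higher in clone #2 and 23 in clone #5, and 0 in both. The counts for the 2 clones share the Vec arrays. At 2-fold they equal those of the stricter rule above with the other TET1-CDwt clone left out, so they are not a separate result.

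Differences that share no array gave the same picture across the transcriptome. TET1-CDwt #2 minus Vec #1 and TET1-CDwt #5 minus Vec #2 correlated with Pearson's r of 0.02 and Spearman's rho of 0.01 across 22530 probes, and 50.3% of probes had the same sign. In the other pairing, TET1-CDwt #2 minus Vec #2 and TET1-CDwt #5 minus Vec #1 gave r = -0.24, rho = -0.27 and 40.7% of the same sign. These are descriptions across genes, which are not independent replicates, and the 4 arrays were scaled each to its own 75th percentile.

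**Figure D2:**
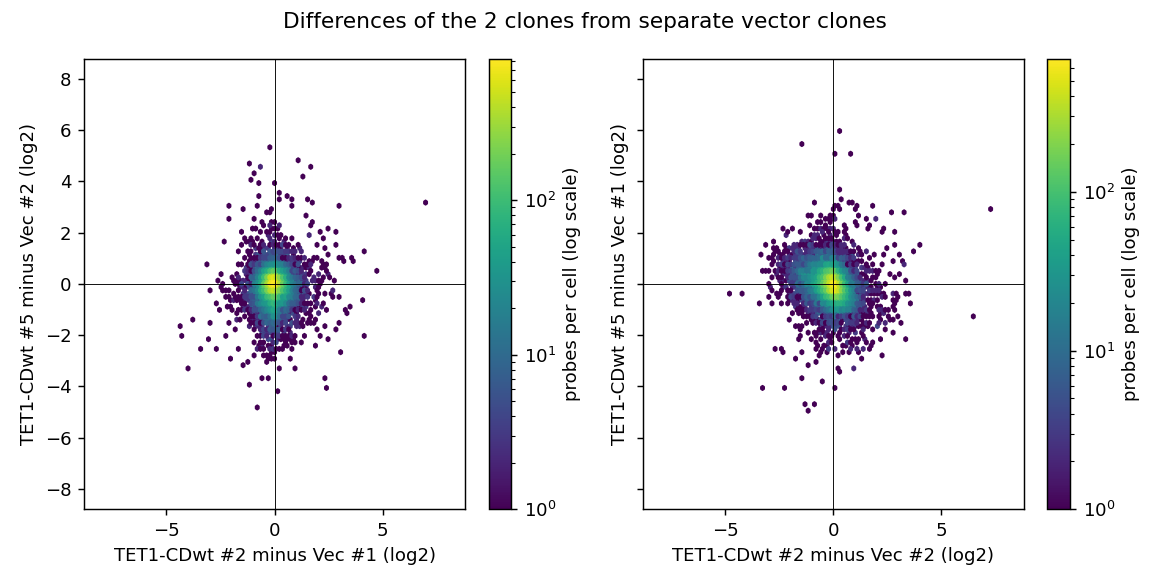
Log2 difference of TET1-CDwt #2 (horizontal axis) and of TET1-CDwt #5 (vertical axis) from a separate Vec clone, for 22530 probes in both possible pairings, with colour for the number of probes in each cell. The clouds have no upward slope, with r of 0.02 on the left and -0.24 on the right.

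The pair of arrays most alike crossed the groups. Over the 21412 probes well above background on all 4 arrays, the SD of the difference was 0.346 between Vec #1 and TET1-CDwt #2, against 0.454 between the Vec clones and 0.483 between the TET1-CDwt clones. It was 0.438 between Vec #1 and TET1-CDwt #5, 0.426 between Vec #2 and TET1-CDwt #5 and 0.484 between Vec #2 and TET1-CDwt #2. A difference of at least 2-fold was found for 619 genes between Vec #1 and TET1-CDwt #2, for 1406 between the Vec clones and for 1322 between the TET1-CDwt clones. The 4 distances between groups thus ran from 0.346 to 0.484 and the 2 between sister clones from 0.454 to 0.483.

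Runs of neighbouring genes set the clones apart. Genes were placed in 267 blocks of about 50 neighbours by their order in the RefSeq table, and the median deviation of a block from the 8-array median was taken. It was beyond 0.2 in 16 blocks of TET1-CDwt #2 (13 lower), 12 of TET1-CDwt #5 (all lower), 10 of Vec #1 and 14 of Vec #2. In 0 blocks were both TET1-CDwt clones beyond 0.2 in the same direction. DNA copy number was not measured here.

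In TET1-CDwt #2 a long stretch of chromosome 1 was low, down to -0.42 for the block from DAB1 to ACADM, where the other 3 arrays read 0.01 to 0.07. The first block of chromosome 4, from ZNF732 to TMEM128, read -0.36 in the same clone. In TET1-CDwt #5 chromosome 3 was low over most of its length, with a median over 743 genes of -0.23 and a block from TPRA1 to PCCB at -0.40, where the other arrays read 0.01 to 0.02. The vector clones also had runs, some of them shared with other clones. Vec #1 was low on much of chromosome 7, to -0.44 from SDHAF3 to LRCH4, where MBD-TET1-CDwt #3 read -0.30. The last block of chromosome 13, from ABCC4 to CHAMP1, read -0.53 in Vec #2 and -0.25 in TET1-CDwt #5. Vec #2 was low along chromosome 22, with a median of -0.25 over 349 genes, and higher on chromosome 9, at 0.18 over 582 genes. The start of chromosome 7 paired clones across the groups, since the block from NT5C3A to PPIA read 0.32 in Vec #1 and 0.30 in TET1-CDwt #2, but -0.15 in Vec #2 and -0.24 in TET1-CDwt #5. With the block medians subtracted, the correlations between clones were -0.07 and -0.32 over 17758 probes.

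**Figure D3:**
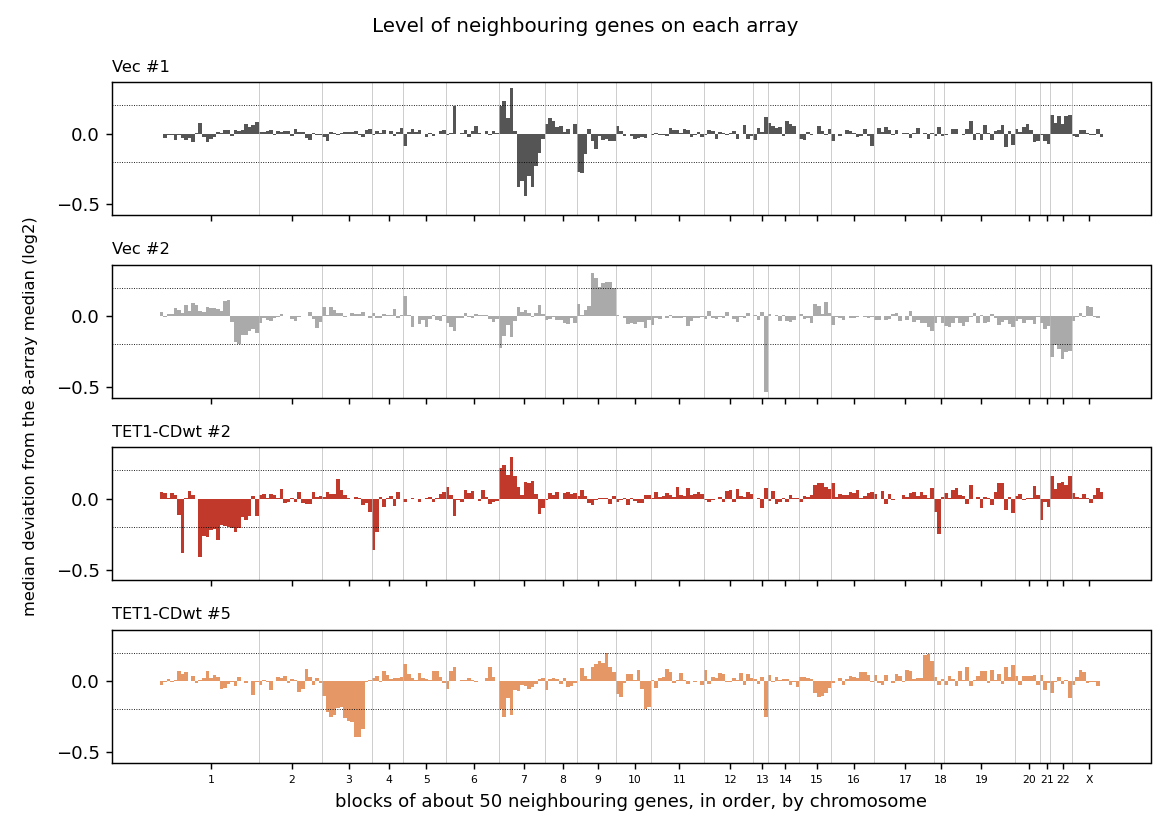
Median log2 deviation from the 8-array median (vertical axis) for 267 blocks of about 50 neighbouring genes, in order by chromosome (horizontal axis), on each of the 4 arrays, with dotted lines at 0.2 and -0.2. Runs differ between clones, such as chromosome 1 in TET1-CDwt #2 and chromosome 3 in TET1-CDwt #5. Some are shared across groups, such as the end of chromosome 13 in Vec #2 and TET1-CDwt #5. No block is beyond -0.2 or 0.2 in the same direction in both TET1-CDwt clones.

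Gene groups that bear on DNA methylation had median differences near 0. None of the 23 lists held a probe with a limma adjusted p below 0.05, and the median over all tested probes was -0.03. Of 30 probes for oxidation and repair of 5-methylcytosine, among them TET1, TET2 and TDG, both clones were above Vec at 2 and below at 5, with a median of -0.04. Over all tested probes these shares were 10.7% above and 17% below. Of 19 probes for DNA methyltransferases and their cofactors these were 3 and 4, with a median of 0.03. Of 25 probes for methyl-CpG readers they were 3 and 2, with a median of -0.03.

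Classes that are often silenced by methylation had medians near 0 as well. For cancer/testis antigens, germline genes that many tumours express, 23 of 54 probes were tested. A probe could enter through the background flag in any of the 4 groups, so it need not be measured in Vec or TET1-CDwt. Both clones were above Vec at 6 and below at 5, with a median of 0.05, where all tested probes had shares of 10.7% and 17%. MAGEA2B read -7.73 and -7.34 in Vec, where it was not well above background, and -5.31 and -5.23 in TET1-CDwt, at least 1.56-fold higher. With normexp its difference was -0.097. MAGEA9, among the 6, stayed below the background limit on the 4 arrays. It was tested through its level in MBD-TET1-CDwt, at -4.42 and -3.88 in clones #3 and #10. Of 16 probes for other germline genes with methylated promoters, 4 were above and 2 below, with a median of 0.01. TEX14, a protein of germ cell bridges, read -3.21 in clone #5 and -6.65 to -5.60 on the other 3 arrays.

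Of 29 probes for imprinted genes, 3 were above and 5 below, with a median of -0.06, near the shares of 10.7% and 17% over all tested probes. PEG3, a paternally expressed zinc finger gene, read -5.04 and -5.19 in Vec and -6.39 and -5.99 in TET1-CDwt, where neither was well above background, at least 1.74-fold lower. SGCE, a sarcoglycan and also paternally expressed, read 0.79 and 0.70 in Vec and -0.13 and 0.36 in TET1-CDwt. Of 22 probes for tumour suppressors methylated in cancer, 2 were above and 1 below, with a median of 0.01. THBS1, an inhibitor of angiogenesis, read -4.97 and -4.91 in Vec and -6.32 and -5.46 in TET1-CDwt at its dimmer probe. At the brighter probe it read -2.06 and -2.15 in Vec and -2.14 and -2.06 in TET1-CDwt, with the groups overlapping.

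The stress lists had medians above 0, with the higher value in clone #5. Of 27 probes for the unfolded protein and amino acid stress response, both clones were above Vec at 8 and below at 2, with a median of 0.23, beside 10.7% above and 17% below over all tested probes. SLC7A11, the cystine transporter, read 1.18 and 1.14 in Vec and 1.85 and 1.87 in TET1-CDwt (log2 difference 0.70, SE 0.16, limma adjusted p = 1). Of 38 probes for heat shock chaperones, 8 were above and 1 below, with a median of 0.08. The median was -0.07 in clone #2 and 0.39 in clone #5. HSPA1A, an inducible HSP70, read -7.84 and -7.58 in Vec, -6.78 in clone #2 and -2.78 in clone #5, well above background in clone #5 alone.

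Clones also parted over the immediate early genes, transcription factors and phosphatases that respond to serum within minutes. The median of 18 probes was -0.18 in clone #2 and 0.73 in clone #5, and 3 were above Vec in both. HOX genes had medians of -0.07 and 0.39 over 38 probes. Interferon-stimulated genes went the other way, with medians of 0.34 in clone #2 and -0.11 in clone #5 over 21 probes. These medians are against the Vec mean. For clone #2 minus Vec #1 and clone #5 minus Vec #2, the HOX medians were 0.15 and 0.14, so the HOX genes did not part in that pairing. The immediate early genes (-0.22 and 0.81) and the interferon-stimulated genes (0.16 and -0.10) still did. XAF1, an interferon-induced partner of the apoptosis inhibitor XIAP, read -6.85 and -8.08 in Vec, where it was not well above background, and -5.30 and -4.79 in TET1-CDwt, at least 1.82-fold higher. OAS2, an antiviral oligoadenylate synthetase, read -5.29 and -5.48 in Vec and -4.65 and -4.29 in TET1-CDwt. With normexp the difference was -0.029 for XAF1 and -0.047 for OAS2, so their direction depended on the background correction. IFIT2, an interferon-induced RNA-binding protein, was at least 2.17-fold lower, at -4.91 and -4.68 in Vec and -6.42 and -7.81 in TET1-CDwt, so members of 1 list stood on both sides. MDM2, the ubiquitin ligase of p53, read -1.72 and -1.47 in Vec and -1.07 and -1.03 in TET1-CDwt, within a p53 target list of 25 probes with 4 above and 3 below (10.7% and 17% over all tested probes). The other 2 MDM2 probes differed by -0.08 (SE 0.20) and -0.14 (SE 0.16), so the probes of the gene did not share a direction.

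**Figure D4:**
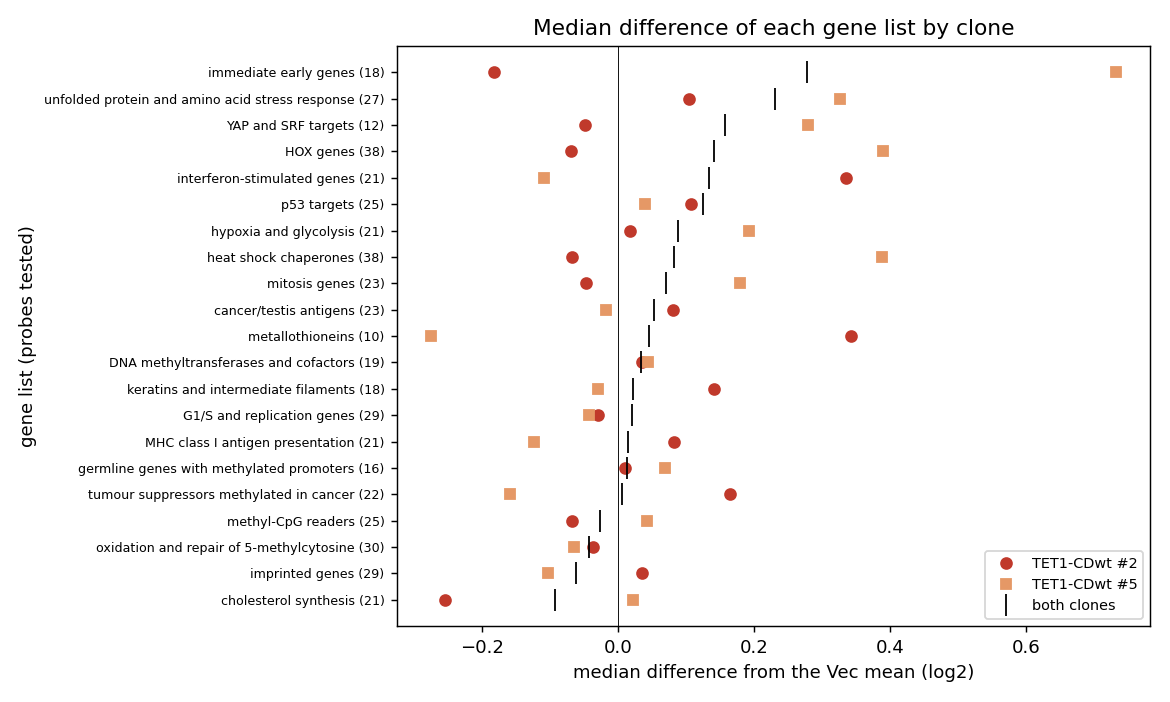
Median log2 difference from the mean of the Vec clones (horizontal axis) for each gene list with at least 10 probes tested (vertical axis, number of probes in brackets), as circles for TET1-CDwt #2, squares for TET1-CDwt #5 and bars for both clones together. The clones stand far apart for the immediate early genes, at -0.18 and 0.73, and close together for the DNA methyltransferases.

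Long non-coding RNAs had a lower median by group mean, though not in every pair of clones. Of 437 lncRNA probes well above background on the 4 arrays, both TET1-CDwt clones were below Vec at 129 (29.5%) and above at 17 (3.89%), against 13.9% and 12.1% of 16966 protein-coding probes. The median difference was -0.19, against -0.01 for protein-coding probes. Against the same Vec arrays it was -0.15 in the active and -0.12 in the inactive clones with the methyl-CpG binding domain, so the lncRNA median was below 0 for all 3 constructs. Vec #2 itself stood 0.15 above Vec #1 at these probes, and TET1-CDwt #5 minus Vec #1 was 0.01. TET1-CDwt #2 was lower than both vector clones, by a median of -0.14 from Vec #1 and -0.35 from Vec #2.

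The SNHG genes, which host small nucleolar RNAs in their introns, had medians below 0 in every pair of a TET1-CDwt and a Vec clone. They were chosen after their values were seen. Their median over 16 probes was -0.33, with both TET1-CDwt clones below Vec at 8 (50%) and above at 0, beside 17% below and 10.7% above over all tested probes. The 4 differences of a TET1-CDwt clone from a Vec clone ran from -0.37 to -0.28, while the Vec clones differed by -0.07. SNHG12 read 3.51 and 3.45 in Vec and 2.51 and 2.76 in TET1-CDwt, with a limma adjusted p of 1. Against the same Vec arrays the median was -0.43 in MBD-TET1-CDwt and -0.15 in the inactive MBD-TET1-CDmut.

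**Figure D5:**
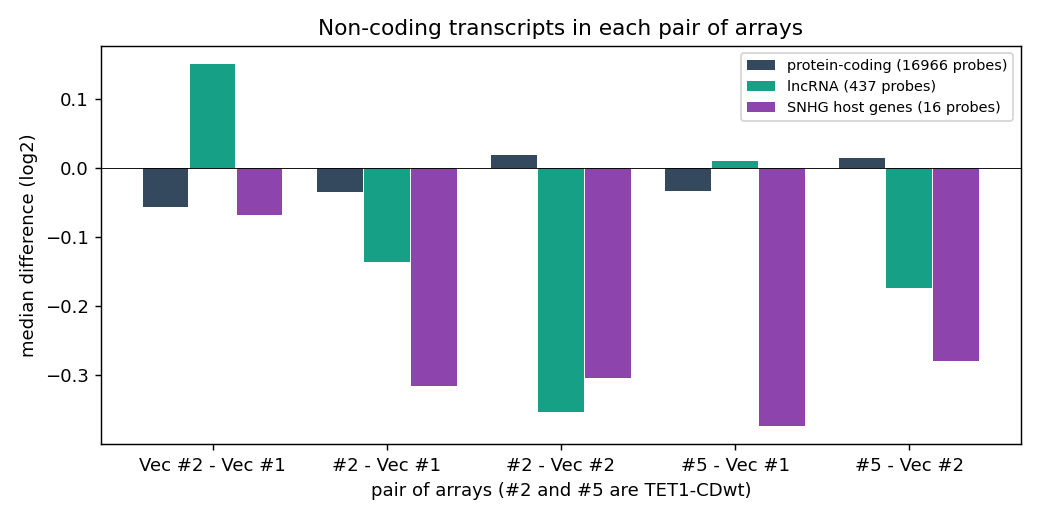
Median log2 difference (vertical axis) in each pair of arrays (horizontal axis) for protein-coding, lncRNA and SNHG host gene probes, drawn as bars from 0. The SNHG bars lie between -0.37 and -0.28 in all 4 pairs of a TET1-CDwt and a Vec clone, whereas the lncRNA bars run from -0.35 to 0.01.

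The same domain joined to the methyl-CpG binding domain gave 24 probes higher and 2 lower than the domain alone in the same limma fit at an adjusted p below 0.05. These counts were 1 and 0 with normexp and 14 and 1 with no filter on dim probes. This contrast crosses slides, so slide and construct cannot be told apart. SOX17, an endoderm transcription factor, was not well above background on the 4 arrays, at -7.96 and -8.18 in Vec and -8.15 and -7.17 in TET1-CDwt, and read -0.47 and 1.13 in MBD-TET1-CDwt. MAGEA2B read -2.26 and 1.11 in MBD-TET1-CDwt.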

How the data were processed

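Cy3-labelled RNA of each clone was hybridized to a 1-colour Agilent Human Gene Expression 4x44K v2 array. The deposited intensity values are Agilent Feature Extraction processed signals, after the authors' background subtraction and with no scaling between arrays. The submitters' processing notes give version 9.5.1 and the file headers 10.7.3.1. The array design was annotated on hg19. The deposited table of the whole series repeats these values. Depth has no counterpart on arrays, and 2 clones per group limit the precision.

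Spots flagged as outliers and control features were dropped, log2 intensities were averaged per probe, and the 75th percentile of each array was subtracted. A probe was well above background when over 50% of its spots were. limma 3.58.1 (R 4.3.3) took the 8 arrays with a mean for each of 4 groups. It tested the 22530 probes with a value on every array that passed the background flag in both clones of some group, with Benjamini-Hochberg adjustment. Whether clones shared a culture date is not given, so p-values measure the spread between these samples. An exact permutation test of 2 arrays against 2 cannot reach 0.05. Size rules needed the background flag in both clones of the higher group, raised dim values of the lower group to the background limit of their array, and counted each gene once. "At least" marks a bound of this kind.

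Of 34127 probes, 25419 (74.5%) were named through RefSeq (GRCh38.p14), and its coordinates were used for gene order and promoters only. Named genes were those of the RT-PCR analysis with TET1, MBD2, B2M and ACTB, every gene at least 5-fold by mean, the 10 highest and 10 lowest by the closest clones, the 5 smallest p in each direction, the 6 genes with the largest difference between TET1-CDwt clones, and up to 4 of each list by p. Others are said to have been chosen later. Members, lists and rules were chosen with earlier results of these data known. Of the 23 lists, those not described in the report held no probe with an adjusted p below 0.05. Alternatives were other normalizations, filters, priors and leaving out each array. The files hold no mean signal, so normexp used the median signal. As first specified, its fit failed on 2 arrays and was replaced after its values were seen. Python 3.11.15 and pandas 2.3.3 were used, and scripts were tested on simulated data.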

Additional observations from a re-analysis of the deposited data

How the results depend on the processing

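limma made 1 call higher (XAF1) and 1 lower (ST8SIA1) under spike-in scaling, chosen after seeing the data, and without TET1-CDwt #2, where the remaining clone #5 is assumed to vary like the other groups, it made 1 higher (MT1G) and 1 lower (A_33_P3322730). Leaving out single arrays gave 0 to 1 call in each direction, and the other settings gave 0. Unadjusted p below 0.05 was met by 255 (quantile), 290 (median scaling), 283 (no filter on dim probes) and 532 (spike-in) probes higher, and by 882 (normexp), 249 (quantile), 232 (median scaling), 875 (no filter) and 39 (spike-in) lower. Single arrays left out gave 150 to 290 higher and 298 to 1002 lower.

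At 2-fold by mean, genes higher numbered 16 with normexp and 293 with spike-in scaling, and genes lower 7 with normexp, 78 with quantile normalization, 81 with median scaling, 21 with spike-in scaling and 194 by the ratio of mean intensities. Leaving out single arrays gave 125 to 333 and 230 to 913. At 5-fold, genes higher numbered 0 with normexp, 8 with spike-in scaling, 9 with no floor and 11 by the ratio, and genes lower 0 with normexp, 0 with spike-in scaling, 2 where 1 array above background sufficed, 11 with no floor and 2 by the ratio, with 5 to 31 and 1 to 25 over single arrays left out. The rule on both clones took 1 (normexp), 13 (quantile), 13 (median scaling), 27 (spike-in) and 16 (no floor) genes higher and 0 (normexp) and 15 (no floor) lower, with 27 to 210 and 62 to 591 over single arrays left out. Leaving out an array can only keep or raise the counts of this rule. Against MBD-TET1-CDwt, normexp gave 1 higher and 0 lower, and no filter 14 and 1.

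Normexp adds an offset of 50 intensity units, which compresses dim probes. In its first run 9 spots of Vec #2 with flagged local backgrounds drew the fitted background mean to -1081, against -3.52 to 3.86 on 6 arrays, and gave r = 0.55 between the clones and 6052 genes 2-fold lower. This run is void. With flagged backgrounds replaced the fitted means were 0.52 to 4.4 and r was 0.02 and -0.22. Pearson's r between clones stayed within 0.1 of its value in all 12 comparisons. Those with median and spike-in scaling could not move it, because they subtract a constant from each array. Spearman's rho of the second pairing moved from -0.27 to -0.13 with normexp, and the share of the same sign rose to 59.6% with spike-in scaling. Directions that turned were AREG (-0.034), XAF1 (-0.029), OAS2 (-0.047) and MAGEA2B (-0.097) with normexp, the second TET1 probe with median scaling (0.039). Without 1 array in turn the second TET1 probe ran from -0.22 to 0.11, the first from -0.072 to 0.22 and ICAM2 from -0.39 to 5.60. List medians moved by more than the spread between sister clones in 18 of 183 comparisons. No paired analysis was possible, because clone numbers label separately picked colonies and pair no clones between groups. Signals near background limit AREG, XAF1, ST8SIA1 and other genes measured in 1 group.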
